A study of Homo sapiens with 12 samples.

Results

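The cytosolic ribosomal protein genes encode the protein parts of the cell's main ribosome. They were chosen by name, as every gene of the deposited count table called RPL or RPS followed by a number with at most an A or X after it, together with RPLP0, RPLP1, RPLP2 and RPSA. This gave 77 genes out of 40295, of which 46 encode proteins of the large subunit and 31 proteins of the small subunit. Names with other endings, which are pseudogenes and diverged paralogs, were left out. The 77 genes stand in the table under 88 Ensembl identifiers, because some, among them RPL7A, RPS9, RPS18 and RPS25, have several, and identifiers of the same name were added. Reads of such genes are divided between near-identical copies, so their values are less certain.

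RNA was sequenced in 12 libraries. TOV-112D, an ovarian cancer line whose p53 carries the R175H mutation, received the solvent DMSO, the compound UCI-1001 or its analog UCI-1014, in which a methoxy group stands in place of the nitro group, with 2 libraries for each and a treatment label of 3 h in all. Saos-2, an osteosarcoma line, was sequenced as its p53-null parent and as a line that carries wild-type p53 on a doxycycline-inducible lentiviral construct (p53-WT), with 3 libraries for each and a label of 16 h of induction in both. The labels do not say whether libraries of 1 group came from separate cultures, so the p-values below measure the spread between these libraries, which may be technical. The dose of UCI-1014 was not found, so the 2 compounds are compared at the same time but not at doses known to match.

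Each ribosome carries a single copy of nearly every ribosomal protein, and the genes are transcribed at high rates that follow the demand for growth. Their messenger RNAs begin with a run of pyrimidines, the terminal oligopyrimidine or TOP motif, through which mTOR signalling sets how strongly they are translated. Ribosome production also reports to p53: when assembly fails, the free particle of RPL5, RPL11 and 5S ribosomal RNA binds MDM2, the ubiquitin ligase that otherwise degrades p53.

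The start of the transcript is the feature by which these genes are best known, and RefSeq gives it for 62 of the 77. A C within 5 bases of the annotated start, followed by at least 5 pyrimidines on the same strand, was found in 52 of these 62 genes (83.9%) and in 13.7% of all 27305 genes with an entry. The windows below run from 30 bases before to 20 bases from the start on, in GRCh38.p14, and capitals mark the pyrimidine run. They are shown for the genes whose changes are described first below: RPL24 (chr3:101686699-101686748, minus strand), RPL38 (chr17:74203648-74203697, plus strand), RPS25 (chr11:119018324-119018373, minus strand), RPL4 (chr15:66504836-66504885, minus strand), RPS19 (chr19:41860225-41860274, plus strand), RPS24 (chr10:78033833-78033882, plus strand) and RPS26 (chr12:56041888-56041937, plus strand).
RPL24: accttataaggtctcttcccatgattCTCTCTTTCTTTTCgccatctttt
RPL38: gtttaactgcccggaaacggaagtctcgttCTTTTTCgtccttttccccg
RPS25: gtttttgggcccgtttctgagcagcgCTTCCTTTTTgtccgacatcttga
RPL4: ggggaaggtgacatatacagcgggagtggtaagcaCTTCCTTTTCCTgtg
RPS19: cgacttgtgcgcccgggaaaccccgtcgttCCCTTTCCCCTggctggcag
RPS24: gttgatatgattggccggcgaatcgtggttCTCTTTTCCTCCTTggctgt
RPS26: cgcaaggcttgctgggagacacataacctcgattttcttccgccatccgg
The run holds 14 bases in RPL24 and RPS24 and 7 in RPL38. RPS26 has no run under this definition. RefSeq lists a further start for RPS19, whose window has no run.

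The libraries held between 17762027 and 24629558 gene counts each. The labels were checked on CDKN1A, the p53 target that encodes the cell cycle inhibitor p21. It lay between 7.77 and 9.20 CPM (counts relative to the library total as scaled by TMM factors) in DMSO, between 56.8 and 79.3 CPM in p53-null and between 7929 and 8998 CPM in p53-WT libraries. HSPA1A, a heat shock chaperone, lay between 207 and 226 CPM in DMSO, 6419 and 7129 CPM in UCI-1001 and 23755 and 25169 CPM in UCI-1014 libraries. The tissue markers were checked as well. In TOV-112D the epithelial markers EPCAM, at most 3.09 CPM, and KRT18, with no count, were low or absent. In Saos-2 the bone markers SP7, with no count, and ALPL, at most 0.529 CPM, were low or absent, RUNX2 lay between 4.15 and 12.1 CPM, SPP1 between 13.4 and 44.5 CPM, and KRT18 between 402 and 558 CPM. KRT8, PAX8 and WT1, of the epithelial list too, were higher in every Saos-2 than in every TOV-112D library. The bone markers ALPL and COL1A1 were higher in every TOV-112D library, COL1A1 with 47.6 to 53.1 against 0.397 to 1.84 CPM. These markers and KRT18 thus ran against the tissue of the lines, while EPCAM and SPP1 went with it and RUNX2 overlapped. The blood cell marker PTPRC was at most 2.93 CPM in any library.

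The 77 genes together held 5.44% and 5.41% of all gene counts in the DMSO libraries. They held 5.39% and 5.23% with UCI-1001 and 4.47% and 4.66% with UCI-1014. The UCI-1014 libraries were the lowest 2 of the 6. In Saos-2 the share was 9.72%, 7.57% and 8.06% in p53-null and 12.5%, 9.45% and 9.46% in p53-WT libraries, so the groups overlapped, and replicate 1 was the highest of its group in both. The ratio of the mean shares was 0.842 ± 0.025 (SD, n = 2 and 2) for UCI-1014 over DMSO and 1.24 ± 0.26 (SD, n = 3 and 3) for p53-WT over p53-null. In bulk RNA, such a share does not tell less RNA of these genes per cell from more RNA of other genes or another mix of cells. The TMM factors were 1.04 and 1.03 in DMSO and 0.941 and 0.942 in UCI-1014 libraries. How much of the lower share with UCI-1014 goes with other genes was not tested.

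**Figure D1:**
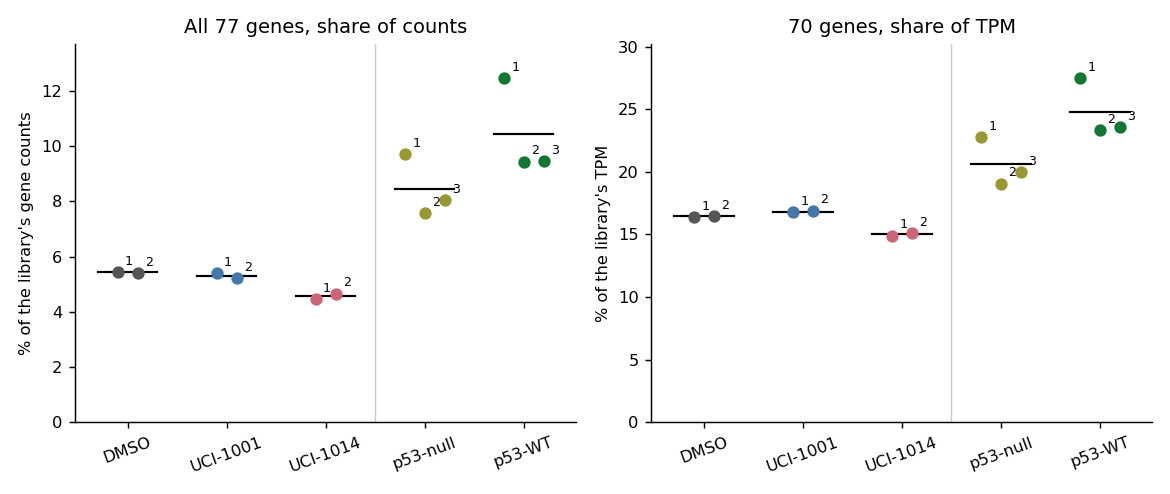
Share of each library's gene counts held by the 77 genes (left, percent) and share of its TPM held by the 70 genes with usable transcript values (right, percent). Points are libraries numbered by replicate, bars are group means, and the vertical line parts TOV-112D from Saos-2 cells. UCI-1014 lies lowest on both scales, and replicate 1 lies highest in both Saos-2 groups.

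On the scale of TPM, which corrects for transcript length, 70 of the genes could be followed through annotated transcripts that held at least 95% of their counts. Their share of TPM was 16.4% and 16.5% in DMSO, 16.8% and 16.9% in UCI-1001 and 14.9% and 15.1% in UCI-1014 libraries. UCI-1001 was thus below DMSO by counts and above it by TPM, whereas UCI-1014 was below DMSO on both. In Saos-2 the TPM share was 22.8%, 19.1% and 19.96% in p53-null and 27.5%, 23.3% and 23.6% in p53-WT libraries.

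Although the ribosome needs these proteins in equal number, the levels of their messenger RNAs spanned 9.78-fold in mean TPM over the 12 libraries. The highest means were those of RPS19, a small subunit protein that is the gene most often mutated in Diamond-Blackfan anemia, with 8565 TPM, RPL41, the smallest ribosomal protein, with 8266 TPM, and RPL37A with 5787 TPM. The lowest were RPL22, an RNA-binding protein of the large subunit, with 876 TPM, RPS26, which lines the messenger RNA exit channel, with 968 TPM, and RPL14 with 1032 TPM. The median gene had 2554 TPM. These means pool both cell lines and all groups. RPS19 had a mean of 2689 TPM in DMSO, 9280 TPM in p53-null and 19562 TPM in p53-WT libraries. For RPL41 these means were 7123, 9626 and 9989 TPM, so RPS19 was not the highest in every group.

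The order of levels differed between the cell lines. RPS19 had 2704 and 2674 TPM in the DMSO libraries of TOV-112D and 9827, 8355 and 9658 TPM in p53-null Saos-2 cells, a ratio of means of 3.45. RPS16 followed with a ratio of 3.33 and RPS20 with 3.16. In the other direction RPL23A, which sits at the peptide exit where the signal recognition particle docks, had 1995 and 1986 TPM in DMSO and 974, 844 and 919 TPM in p53-null libraries. The next in that direction were RPS28, 1.69 times as high in DMSO, and RPL23, 1.61 times as high.

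Of the 70 genes, 40 were higher by TPM in every p53-null than in every DMSO library, 14 were lower in every one and 16 overlapped. The direction can depend on the scale. RPL31, 1 of the 14, had 454 and 457 CPM in DMSO and 720, 490 and 530 CPM in p53-null libraries. CPM does not correct for transcript length and was scaled within each line. How many genes would change sides by CPM was not counted. The median log2 ratio was 0.21, with 10 genes over 2-fold higher and 1 gene over 2-fold lower in Saos-2. The share of all genes that part the lines in these ways was not computed. These counts are therefore not shown to be particular to the ribosomal genes. The lines differ in tissue, p53 status and treatment, and the labels do not say whether they were sequenced together. These cannot be told apart here, so this is a description with no test. RPL22, with 869 ± 30 TPM (SD, n = 2) in DMSO and 874 ± 41 TPM (SD, n = 3) in p53-null cells, and RPL10, with 4233 ± 21 TPM and 4312 ± 267 TPM, did not separate the lines.

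**Figure D2:**
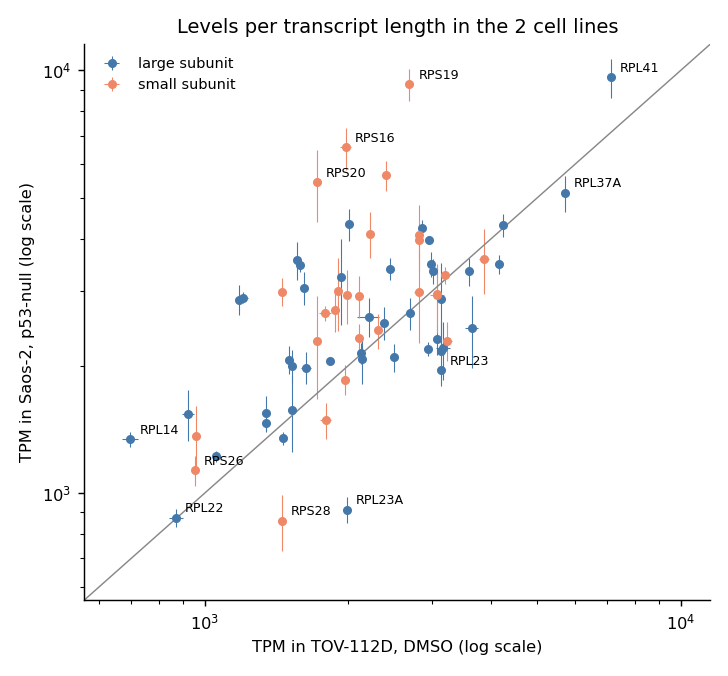
Mean TPM of 70 genes in DMSO-treated TOV-112D (x axis, n = 2) against p53-null Saos-2 cells (y axis, n = 3), both on log scales, with SD as bars and the diagonal of equal levels. RPS19, RPS16 and RPS20 stand above the diagonal with ratios of 3.45, 3.33 and 3.16, and RPL23A stands below it.

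With UCI-1014 many of these messenger RNAs were lower, by a small amount. Against DMSO, 37 of the 77 genes fell at an adjusted p-value under 0.05 in edgeR's quasi-likelihood test and 0 rose, where 21.5% of all 14978 genes tested fell and 22.8% rose. DESeq2 gave 40 falls and 0 rises, and at an unadjusted p-value under 0.05 edgeR gave 53 falls and 1 rise, that of RPS9. No share of all genes was set beside the DESeq2 and unadjusted edgeR counts, here or below. The same holds for the counts under other settings or with libraries left out. The median log2 fold change of the 77 was -0.10, while that of all genes was -0.013. The 77 genes were narrowly spread: their middle 50% lay between -0.17 and -0.067, whereas the middle 50% of all genes lay between -0.22 and 0.27. In 71 of the 77 both UCI-1014 libraries lay below both DMSO libraries, against 37.3% of all genes.

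The largest fall was that of RPL24, a late-joining large subunit protein at the face toward the small subunit. It had 341 and 344 CPM in DMSO, 339 and 309 CPM in UCI-1001 and 228 and 254 CPM in UCI-1014 libraries. UCI-1014 lay below the other groups without overlap, with a log2 fold change of -0.51 ± 0.056 (SE, n = 2 and 2) against DMSO (edgeR adjusted p = 4.71e-05). RPL38, a large subunit protein known for its part in translating Hox messenger RNAs, had 344 and 327 CPM in DMSO and 236 and 260 CPM in UCI-1014 libraries, a log2 fold change of -0.44 ± 0.074 (edgeR adjusted p = 0.000834). RPS25, which viral internal entry sites depend on, fell from 397 and 388 to 303 and 321 CPM, by 0.33 ± 0.039 on the log2 scale (edgeR adjusted p = 7.50e-05). In contrast RPL4, which lines the peptide exit tunnel, had 1670 and 1720 CPM in DMSO and 1670 and 1732 CPM in UCI-1014 libraries, and its log2 fold change of 0.0052 had a 95% interval from -0.065 to 0.075.

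The falls were found in both subunits, in 24 of 46 large and 13 of 31 small subunit genes. Over all genes tested 21.5% fell, and over the 77 genes 48.1%. Of the proteins at the peptide exit tunnel and its rim, 7 of 9 fell with a median of -0.17, among them RPL35 (-0.30), RPL17 (-0.26), RPL23A (-0.25) and RPL26 (-0.17). Of the genes mutated in Diamond-Blackfan anemia, 13 of 18 fell with a median of -0.14, among them RPS26 (-0.26) and RPL35A (-0.26), while RPS19 had -0.034 and did not pass the test. Of 6 proteins at the decoding side and messenger RNA channel, 3 fell, and RPS15 (-0.32) was the lowest of them.

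Of the stalk, where the elongation factors bind, RPLP2 was the only 1 of 4 genes to fall (-0.15), while RPLP0 had -0.048 and RPLP1 had -0.061. For comparison, 21.5% of all genes tested and 48.1% of the 77 fell. Of a fixed list of 8 proteins that bind MDM2, which may leave out others, 5 fell with a median of -0.10. Among them were RPL23 (-0.24), RPL11 (-0.11), RPS14 (-0.095) and RPS27 (-0.12). The calls of RPL11, RPS14 and RPS27 were lost without DMSO replicate 1, DMSO replicate 2 or UCI-1014 replicate 1, and that of RPLP2 was lost without DMSO replicate 1. RPL5, the partner of RPL11 in the particle with 5S ribosomal RNA, had 778 and 781 CPM in DMSO and 737 and 765 CPM in UCI-1014 libraries and did not pass (log2 fold change -0.053, edgeR adjusted p = 0.223). RPS6, the target of the S6 kinases, had 986 and 1000 CPM in DMSO and 930 and 965 CPM in UCI-1014 libraries, with a log2 fold change of -0.067 and an edgeR adjusted p of 0.123. RPS9, at the messenger RNA entry, had the highest log2 fold change of the 77, 0.17 (edgeR adjusted p = 0.0619). It is divided among 4 identifiers, and it passed as a rise without the filter on low counts, with DESeq2 size factors and without either UCI-1001 library.

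The count of falls moved with the libraries and scaling used. It was 22 without DMSO replicate 1, 23 without DMSO replicate 2, 22 without UCI-1014 replicate 1, 57 without UCI-1014 replicate 2, 76 with library totals in place of TMM factors and 1, that of RPL24, when the 12 libraries shared a single fit. Library totals moved the median of all genes to -0.15, and relative to that median the 77 genes stood at -0.091, as they did with TMM factors.

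**Figure D3:**
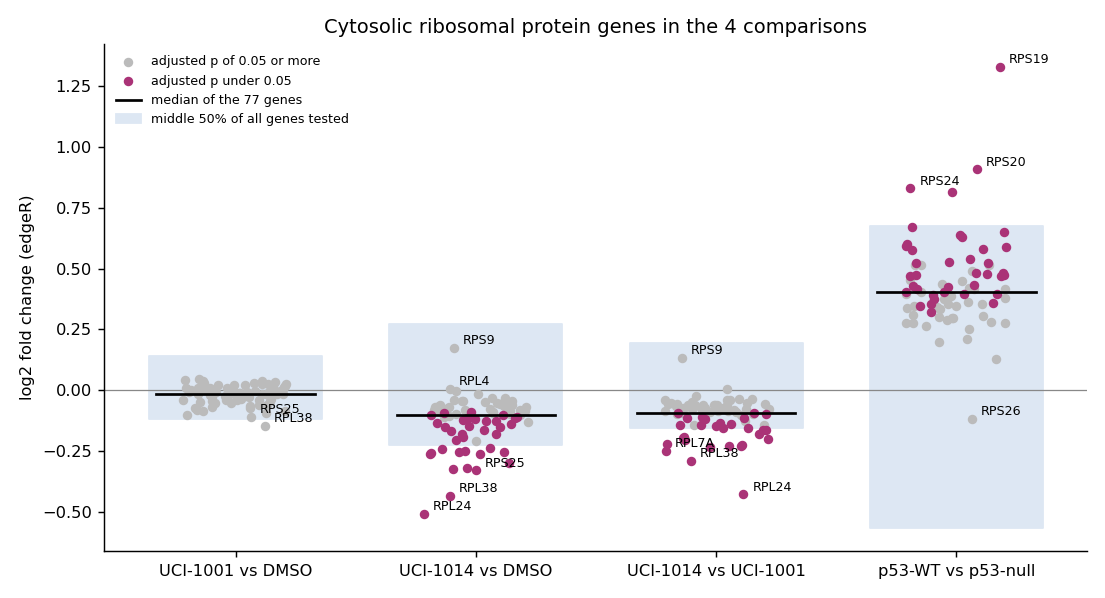
Log2 fold change of each of the 77 genes in the 4 comparisons (y axis), coloured by whether the edgeR adjusted p-value was under 0.05, with the median of the 77 as a bar and the middle 50% of all genes tested as a band. The genes centre on 0 for UCI-1001, lie mostly just below 0 for UCI-1014 and lie mostly above 0 for p53-WT, where RPS19 stands apart at 1.33.

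With UCI-1001, none of the 77 genes passed the test against DMSO, where 7.75% of all genes rose and 5.21% fell. At an unadjusted p-value under 0.05, edgeR gave 2 genes, RPS25 and RPL41, both lower, and DESeq2 and limma on TPM also gave 0 after adjustment. The median log2 fold change was -0.016 beside -0.0026 for all genes. RPS25 came closest, with 370 and 358 CPM (log2 fold change -0.11 ± 0.039, edgeR adjusted p = 0.0981). RPL41 came next with 1083 and 1017 CPM, against 1132 and 1118 CPM in DMSO. For 76 of the 77 genes the 95% interval of the log2 fold change lay within 0.3 of 0, and that of RPL38 reached -0.31. The 2 libraries of UCI-1001 were farther apart for RPL38 (329 and 277 CPM) than those of DMSO. The count of 0 became 2 without the filter on low counts, by RPL38 and RPL41, and 1 without UCI-1001 replicate 1, by RPL38, all lower.

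The compounds were compared directly to test whether the falls differed between them. UCI-1014 was below UCI-1001 in 29 of the 77 genes and above it in 0, where 11.5% of all genes were lower and 16.2% higher, with a median of -0.093 beside -0.0040 for all genes. DESeq2 gave 38 lower and 0 higher, and at an unadjusted p-value under 0.05 edgeR gave 46 lower and 0 higher. RPL24 led again (-0.43 ± 0.056, edgeR adjusted p = 0.000360), followed by RPL38 (-0.29 ± 0.074, edgeR adjusted p = 0.0156) and RPL7A, which holds 4 small nucleolar RNA genes in its introns (-0.25 ± 0.035, edgeR adjusted p = 0.000597). RPL7A had 1113 and 1128 CPM in DMSO, 1079 and 1054 CPM in UCI-1001 and 871 and 924 CPM in UCI-1014 libraries. The middle group lay between the others without overlap. The call of RPL38 was lost without UCI-1001 replicate 1, where its log2 fold change was -0.17, and without UCI-1014 replicate 1, where it was -0.22. RPS9 passed as higher with UCI-1014 than with UCI-1001 without the filter on low counts (log2 fold change 0.13, edgeR adjusted p = 0.0198) and without UCI-1001 replicate 1 (0.26, edgeR adjusted p = 0.00616).

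Among the genes that did not pass between the compounds, RPL4 had a difference of 0.0067 with a 95% interval from -0.064 to 0.077, and RPL5 one of -0.039 with an interval from -0.11 to 0.034. For 47 of the 48 genes that did not pass, the interval lay within 0.3 of 0. The 2 comparisons share the UCI-1014 libraries, and 27 genes were called in both, which is 73.0% of the 37 and 93.1% of the 29. No overlap over all genes was set beside it, so it is not shown to be particular to these genes. The count of 29 became 19 without DMSO replicate 1, 17 without UCI-1001 replicate 1, 14 without UCI-1014 replicate 1, 52 of 70 genes with limma on TPM, 76 with library totals and 0 when the 12 libraries shared a single fit.

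**Figure D4:**
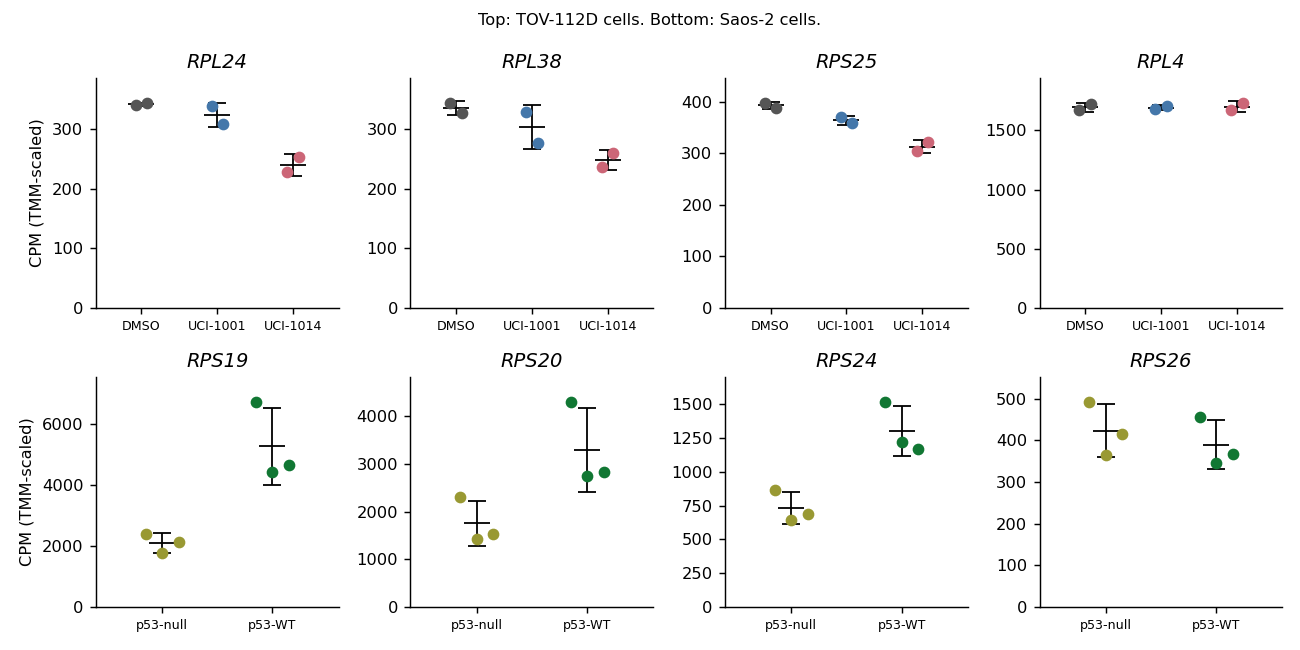
CPM of 4 genes in TOV-112D (top) and 4 genes in Saos-2 cells (bottom), with each library as a point and the group mean ± SD in black, on axes from 0. RPL24, RPL38 and RPS25 were lower in both UCI-1014 than in both DMSO libraries and RPL4 was not, while RPS19, RPS20 and RPS24 were higher in all p53-WT libraries and RPS26 overlapped.

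In Saos-2 the direction was the opposite. With p53-WT, 38 of the 77 genes rose against p53-null and 0 fell, where 32.9% of all 15070 genes tested rose and 32.1% fell. DESeq2 gave 53 rises and 0 falls, and at an unadjusted p-value under 0.05 edgeR gave 50 rises and 0 falls. The median log2 fold change was 0.40 beside -0.014 for all genes, and 76 of the 77 lay above 0. The groups of 32 genes did not overlap, with p53-WT higher, which is 41.6% of the 77 against 34.6% of all genes. The libraries of 1 group differed more here than in TOV-112D, with a common coefficient of variation of 13.0% against 3.98%.

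RPS19 rose most. It had 2395, 1761 and 2141 CPM in p53-null and 6728, 4422 and 4665 CPM in p53-WT libraries, a log2 fold change of 1.33 ± 0.18 (SE, n = 3 and 3, edgeR adjusted p = 0.000102), and it was the only gene of the 77 to rise over 2-fold. RPS20, a protein of the head of the small subunit, had 2302, 1431 and 1528 CPM in p53-null and 4301, 2746 and 2823 CPM in p53-WT libraries (log2 fold change 0.91 ± 0.22, edgeR adjusted p = 0.00449). RPS24, another gene of Diamond-Blackfan anemia, rose from 866, 646 and 688 CPM to 1518, 1225 and 1167 CPM (0.83 ± 0.14, edgeR adjusted p = 0.000627). The groups did not overlap for any of these 3, and replicate 1 was the highest library of each group in all 3.

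RPS26 alone lay below 0. It had 492, 364 and 414 CPM in p53-null and 456, 345 and 368 CPM in p53-WT libraries, with a log2 fold change of -0.12 and a 95% interval from -0.44 to 0.20. The next genes by size of rise were RPL36 (0.82), RPL34 (0.67), RPS27 (0.65) and RPL10 (0.64).

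By role, 24 of 46 large and 14 of 31 small subunit genes rose. All 4 genes of the stalk did, with RPLP1 at 0.58, RPLP2 at 0.47, RPL12 at 0.47 and RPLP0 at 0.42. Of the 8 listed proteins that bind MDM2, RPS27 (0.65) and RPL23 (0.32) rose. The others on that list had log2 fold changes from 0.30 for RPL5 to 0.42 for RPL11 and did not pass. Of the peptide exit group 4 of 9 rose, of the decoding group 4 of 6, and of the Diamond-Blackfan genes 6 of 18. Beside the 32.9% of all genes that rose, the share of the Diamond-Blackfan genes was close to the background. That of the 8 listed MDM2-binding proteins was below it. Of these calls, those of RPLP0 and RPL23 were lost without p53-null replicate 2, p53-null replicate 3 or p53-WT replicate 1, and without the last the log2 fold change was 0.25 for RPLP0 and 0.22 for RPL23.

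RPL5 had 1580, 1206 and 1228 CPM in p53-null and 1833, 1597 and 1523 CPM in p53-WT libraries (edgeR adjusted p = 0.0669), and RPS6 had 2034, 1528 and 1566 CPM against 2615, 1942 and 1955 CPM (edgeR adjusted p = 0.0746). For both, replicate 1 of the p53-null group reached into the range of p53-WT. The same was seen for RPSA, the laminin receptor precursor (log2 fold change 0.30), RPL13A (0.42), RPS7 (0.36), RPS3 (0.40), RPS14 (0.31), RPS27A, which is made as a fusion with ubiquitin (0.34), RPL26 (0.36) and RPL41 (0.28), none of which passed. RPL22 was more even within its groups, with 762, 735 and 756 CPM in p53-null and 886, 1025 and 966 CPM in p53-WT libraries (0.35 ± 0.098, edgeR adjusted p = 0.00967).

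The count of rises depended on the libraries, and no share of all genes was set beside the counts that follow. It was 64 without p53-null replicate 1, 18 without p53-null replicate 2, 19 without p53-null replicate 3, 24 without p53-WT replicate 1 and 75 without both libraries of replicate 1, which was tried after the values were seen. It was 18 with library totals, 59 when the 12 libraries shared a single fit, and 23 of 70 genes, with a fall of RPS26, with limma on TPM. On that TPM scale the median of all genes moved to -0.22, and relative to it the ribosomal genes stood at 0.40.

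Some parts of the same ribosome are encoded under other names. FAU, the precursor of RPS30, and RACK1, a scaffold on the small subunit, had log2 fold changes of -0.19 and -0.088 with UCI-1014, of which that of FAU passed, and of 0.47 and 0.45 with p53-WT, both of which passed. With UCI-1001 neither passed. The diverged paralogs were mixed. With p53-WT, RPS27L, a known p53 target, rose from 23.9 ± 7.1 to 259 ± 46 CPM (SD, n = 3 and 3, log2 fold change 3.44, edgeR adjusted p = 5.13e-07), whereas RPL22L1 fell by 1.04 and RPL39L fell by 1.30 on the log2 scale. With UCI-1014 RPL36AL fell by 0.54 on the log2 scale, and of 7 paralogs tested it was the only one called. These calls stand beside 21.5% of all genes tested that fell and 22.8% that rose with UCI-1014. The shares were 32.1% and 32.9% with p53-WT, and 5.21% and 7.75% with UCI-1001.

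Other messenger RNAs with a TOP motif were counted too. With UCI-1014, 2 of 13 rose and 2 fell, with a median of 0.0014, where 22.8% of all genes tested rose and 21.5% fell. TPT1 was the highest (0.17) and HNRNPA1 the lowest (-0.19), and EEF1A1, the elongation factor that delivers transfer RNAs, had 12473 ± 295 and 12325 ± 179 CPM (SD, n = 2 and 2) in DMSO and UCI-1014. With UCI-1001 none of the 13 passed. With p53-WT, 8 of 13 rose and 0 fell, with a median of 0.44, where 32.9% of all genes tested rose and 32.1% fell. EEF2, the translocation factor, rose from 3059 ± 289 to 6017 ± 371 CPM (SD, n = 3 and 3, log2 fold change 0.98, edgeR adjusted p = 2.84e-05), and EEF1A1 rose by a log2 fold change of 0.62.

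Genes that build ribosomes mostly fell in Saos-2. Of 38 biogenesis factors, 30 fell and 1 rose with p53-WT, with a median log2 fold change of -0.83. Of all genes tested, 32.1% fell and 32.9% rose. MRTO4, which prepares the site of the stalk, fell from 189 ± 22 to 56.5 ± 6.1 CPM (SD, n = 3 and 3), GNL3 (nucleostemin) fell by 1.63 on the log2 scale, and POLR1A, the largest subunit of RNA polymerase I, was the gene that rose (1.61). MYC, a driver of both gene groups, had a log2 fold change of -1.55 ± 0.10 (edgeR adjusted p = 6.86e-07). With UCI-1014, 15 of the 38 fell and 8 rose, from NOP16 (-0.55) and UBTF (-0.50) to NOP58 (0.71), and with UCI-1001 6 fell and 2 rose. Of all genes tested, 21.5% fell and 22.8% rose with UCI-1014, and 5.21% fell and 7.75% rose with UCI-1001. MYC had a log2 fold change of -0.36 with UCI-1014, which passed, and of -0.13 with UCI-1001, which did not.

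The mitochondrial ribosomal proteins, which form a separate ribosome, were mixed in every comparison. Of 78 tested, 32 fell and 10 rose with UCI-1014 with a median of -0.14, and 25 fell and 9 rose with p53-WT with a median of -0.20. Of all genes tested, 21.5% fell and 22.8% rose with UCI-1014, and 32.1% fell and 32.9% rose with p53-WT. MRPL18 had log2 fold changes of 1.25 with UCI-1001 and 2.58 with UCI-1014. Of the pseudogenes of the 77 genes, 36 of 1221 passed the count filter in TOV-112D, where 5 fell with UCI-1014, and 51 passed it in Saos-2, where 23 rose and 2 fell with p53-WT. They held between 0.0340% and 0.322% of a library's counts.

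The estimated transcript shares of several genes differed between the 2 cell lines. The labels do not say whether the lines were sequenced together, so line and batch cannot be told apart here. Transcripts that held at least 20% of their gene's TPM in some library were followed, and those named here were chosen after their values were seen, so no test is given. The largest difference was in RPL3, where transcript ENST00000216146.8 held at most 0.593% of the gene's TPM in TOV-112D and between 78.4% and 98.0% in Saos-2 libraries, while ENST00000401609.5 held between 96.2% and 97.7% in TOV-112D and between 0.876% and 20.6% in Saos-2. The transcripts of RPS24 also changed places. ENST00000372360.8 (553 bases) held 68.1% and 67.4% in DMSO and 23.6%, 22.6% and 25.1% in p53-null libraries, and ENST00000613865.5 (634 bases) held 18.9% and 18.8% in DMSO and 75.04%, 75.7% and 73.6% in p53-null libraries.

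In Saos-2 the largest shift between the groups was in the same pair. With p53-WT the 553-base transcript of RPS24 held 35.3%, 36.2% and 35.0%, above each p53-null library, and the 634-base transcript 63.0%, 61.9% and 63.0%, below each. The 2 differed by more than the spread within the groups, in which no SD was above 1.24 percentage points. In RPS19 the share of ENST00000593863.5 rose from 18.7%, 17.2% and 19.3% to 32.99%, 23.2% and 26.1%. In TOV-112D the largest shift with UCI-1014 was in RPL21, where ENST00000311549.10 held 67.5% and 63.9% in DMSO, 60.01% and 51.5% in UCI-1001 and 48.8% and 54.2% in UCI-1014 libraries. kallisto divides reads among transcripts by their likelihood, so these shares are estimates.

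**Figure D5:**
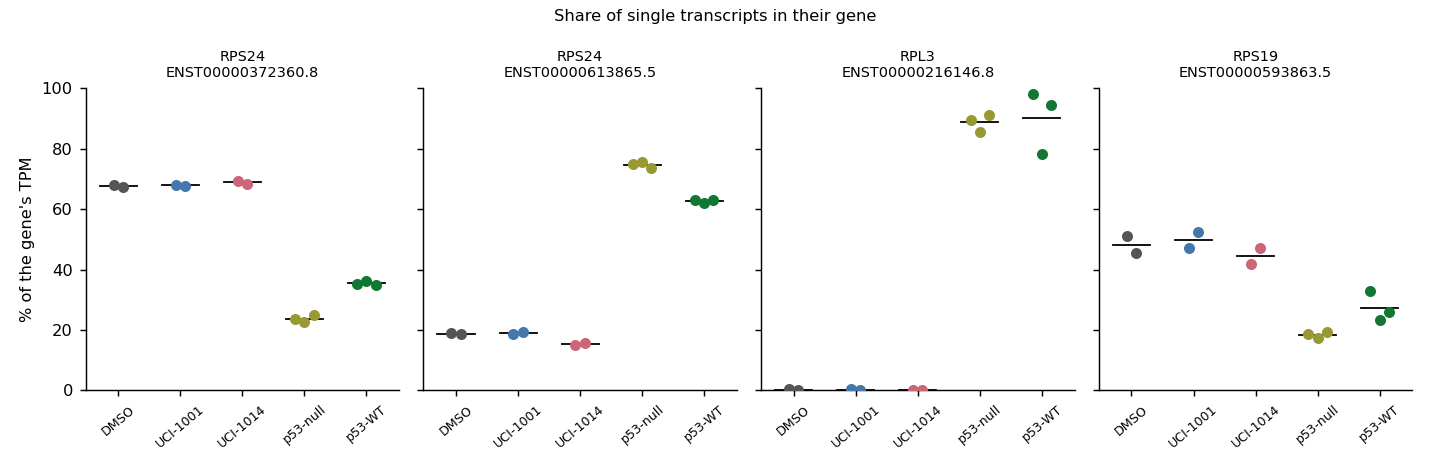
Share of a gene's TPM held by 4 single transcripts (y axis, percent), with each library as a point and group means as bars. The RPS24 transcripts change places between the lines and shift between p53-null and p53-WT by more than the spread of the libraries, the RPL3 transcript holds at most 0.593% in TOV-112D, and the RPS19 transcript is higher in all p53-WT than in all p53-null libraries.

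Transcripts that are not annotated as protein coding, such as those with a retained intron, held 8.95%, 9.41% and 9.22% of the counts of the 70 genes in p53-null and 8.60%, 8.85% and 8.53% in p53-WT libraries. For all genes the range was 8.16% to 8.25% and 7.38% to 8.44%. The log2 ratio of these to coding transcripts was tested gene by gene with limma, and 0 of 68 genes passed with p53-WT, where 0.734% of 6812 genes tested did. At an unadjusted p-value under 0.05 it was lower in 22 and higher in 0 of the 68, where 13.99% of all genes tested passed at that level in either direction, and the median change was -0.59 beside -0.063 for all genes. RPL22 had the lowest, with 0.601%, 0.476% and 0.507% of its counts in such transcripts in p53-null and 0.156%, 0.125% and 0.104% in p53-WT libraries (log2 ratio change -2.02, limma adjusted p = 0.0808). RPS16 had -1.82 (limma adjusted p = 0.0839). With at least 50 counts in each class RPL22, RPS16, RPSA and RPL3 passed, all lower.

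In TOV-112D 0 of 69 genes passed in this ratio in any comparison, where 0.0% of 6734 genes did for UCI-1001 against DMSO, 0.0297% for UCI-1014 against DMSO and 0.0% for UCI-1014 against UCI-1001. The counts at an unadjusted p-value under 0.05 in limma were 2, 1 and 2 of 69, where 7.10%, 10.4% and 7.11% of all genes tested passed at that level.

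Features of the genes were set beside their changes as a description. Across the 70 genes with usable transcripts, the log2 fold change with UCI-1014 against DMSO increased with the length of the main transcript, with a Spearman rho of 0.47. Across 13806 other genes in the same 4 libraries the rho was 0.092. The 14 genes whose main transcript had at most 500 bases had a median of -0.14, and the 56 longer ones had -0.089. The main transcripts of the ribosomal genes had a median of 625.5 bases, against 2563 in the other genes, and the part of length in the falls was not tested. With p53-WT the rho across the 70 genes was -0.083.

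The 77 genes lie on 21 chromosomes, 4 of them on X, and 28 hold 60 small nucleolar RNA genes between them. With UCI-1014, where 21.5% of all genes tested fell, 9 of these 28 hosts fell with a median of -0.080. Of the 49 other members, 28 fell with a median of -0.12. With p53-WT the medians were 0.40 and 0.42. Genes with a pyrimidine run at the start had a median of -0.10 with UCI-1014 (25 of 52 fell) and genes without one had -0.13 (6 of 10 fell).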

How the data were processed

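RNA was extracted with an RNeasy kit and sequenced commercially. According to the submitters' notes and the methods, the authors quantified reads against GRCh38 with kallisto 0.48.0, summed the estimated counts of each Ensembl gene, converted them to whole numbers and tested them with DESeq2 1.38.3. The deposited gene table holds these counts, not normalized. The authors also deposited estimated counts and TPM for 187626 transcripts per library, of which 88.4% were found in GENCODE release 44. kallisto divides reads between similar transcripts, so genes with near-identical copies are uncertain.

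Counts of the same member symbol were added. They were tested with edgeR 4.0.16 (filterByExpr, TMM, glmQLFit and glmQLFTest, Benjamini-Hochberg adjustment over all genes, threshold 0.05) in R 4.3.3, with 1 fit per cell line. A rule named fixed genes of known roles, the 3 largest rises and falls without overlap per comparison and the 3 highest and lowest TPM. The members, lists and rule were chosen with earlier results of these data known. Other genes named in the text were chosen after their values were seen. Of other genes with several identifiers, the one with most counts was used. Intervals are from the t distribution of the fit, and SE is the fold change over the root of F. limma 3.58.1 tested log2((other + 1)/(coding + 1)) of estimated counts for genes with a mean of at least 10 in both classes, and log2(TPM + 1) at a mean TPM of at least 1. DESeq2 1.42.0 was an alternative. Promoter windows came from RefSeq. Scripts were tested on simulated data. Python 3.11.15 with pandas 2.3.3 and matplotlib 3.10.9 served for the rest. The 9 host RNAs of small nucleolar RNAs among the fixed lists were not analysed here. A few genes are not reported here.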

Additional observations from a re-analysis of the deposited data

How the results depend on the processing

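Medians of the 77 genes kept their sign in every alternative run, except for UCI-1001 against DMSO, where the median near 0 became 0.028 with limma on TPM and ranged from -0.031 to 0.0026 over single left-out libraries. For UCI-1014 against DMSO, 37 calls became 76 with library totals, 1 in the fit of 12 libraries and 22 to 57 with 1 library left out, and the median became -0.24, -0.17 and -0.14 to -0.071. For UCI-1014 against UCI-1001, 29 calls became 76, 0 and 14 to 38, and 52 with limma on TPM, with medians of -0.22, -0.13, -0.13 to -0.065 and -0.15. For p53-WT, 38 calls became 18 with library totals, 59 in the fit of 12 libraries, 24 with limma on TPM, 18 to 64 with 1 library left out, and 75 without both libraries of replicate 1, which was chosen after seeing the data. The median ranged from 0.24 to 0.55 over single left-out libraries. For UCI-1001, 0 calls became 2 without a filter and 0 to 1 with 1 library left out. Asking for a log2 fold change above 1 in size left 0, 0 and 1 calls for UCI-1014 against DMSO, UCI-1014 against UCI-1001 and p53-WT. The calls in the ratio of other to coding transcripts with p53-WT became 4 with at least 50 counts per class, and were 0 with each library left out. The ratio of the mean shares became 1.02, 0.914 and 0.892 by TPM in place of counts for UCI-1001 against DMSO, UCI-1014 against DMSO and UCI-1014 against UCI-1001. The causes of these moves were not tested. Without the share of all genes called in each run, the counts do not show whether other genes moved alike.

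The replicate block, which treats same-numbered libraries as pairs, gave 75 calls in place of 38 for p53-WT and 28 in place of 37 for UCI-1014 against DMSO, where RPL11 and RPS14, among others, lost their calls and RPS9 passed as a rise. Against UCI-1001, 25 calls were left in place of 29, and RPLP2 and RPS14 were among those lost. Over all genes tested, deviations of same-numbered libraries from the group means of log CPM had correlations between -0.13 and 0.13. In Saos-2 they were 0.18, 0.17 and 0.044 as log2(CPM + 1) and, over the 77 genes alone, 0.61, 0.61 and 0.24. Since not every value over all genes was above 0.1, the numbers were not taken to pair libraries. In Saos-2, p53-null replicate 2 correlated best with p53-WT replicate 3, with 0.22 over all genes and 0.76 over the 77, so not every library matched its own number. At this depth the SE of a member's log2 fold change had a median of 0.037 for UCI-1014 against DMSO and 0.17 for p53-WT, so smaller changes could be told from 0 in the former. Without UCI-1001 replicate 2 the median of UCI-1001 was above 0.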
